A study of Mus musculus with 6 samples.

Results

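The Hox genes form 4 clusters in the mouse genome, named Hoxa, Hoxb, Hoxc and Hoxd. Their signal was compared here between calvaria, mandible and ulna, without a filter on signal. The members were all probe sets whose array annotation names one of 39 cluster genes. A probe set is a group of short probes that together give 1 signal for a transcript. In all, 53 of 45037 probe sets were found, of which 50 name 1 member and 3 name 2 members together. They gave a value of their own to 34 of the 39 genes, 10 of Hoxa, 9 of Hoxb, 7 of Hoxc and 8 of Hoxd, among 18193 genes in the whole data set. The other 5 (Hoxa6, Hoxb8, Hoxc11, Hoxc12 and Hoxd4) had no probe set to themselves. Where a gene had several probe sets, as 12 genes did, the one with the highest mean over the 6 arrays stood for it.

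Bone was taken from untreated adult male mice weighing 24 to 26 grams, a strain that the methods name Black CD57. Per the methods, 10 mice in 2 groups were used. There were 2 Affymetrix mouse GeneChip arrays for each site, calvaria freed of sutures, mandible with its teeth, and ulna freed of soft tissue and epiphyses. The sources used here do not say whether an array held RNA of 1 mouse or of several pooled, and p-values therefore cover no more than array-to-array spread, possibly technical. Osteoblast markers were above the array median at every site (7 of 7 measured), but not at equal levels. Their summed signal was 29400 to 33100 in calvaria, 30300 to 31500 in mandible and 6280 to 6510 in ulna. All 7 were higher in calvaria and in mandible than in ulna. The bones also differed in other tissues. The summed signal of 11 skeletal muscle markers was 6100 to 6280 in calvaria, 45100 to 45200 in mandible and 48600 to 48800 in ulna. That of 8 blood progenitor markers was 5330 to 5640, 2910 to 2960 and 8150 to 8350 in the same order, and that of 7 tooth markers was 46.0 to 89.5, 52900 to 53200 and 64.9 to 91.0. Of 5 head site genes, such as Twist1 and Zic1, 5 were higher in calvaria and 4 in mandible than in ulna, and Zic1 was lower in mandible. Of 5 limb site genes, Shox2 was lower in calvaria than in ulna and 2 (Shox2 and Hand2) were higher in mandible, while Tbx5, which marks the forelimb, was below the array median at every site. Samples were whole bone, in which fewer cells of a type and less RNA per cell cannot be told apart.

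Hox genes encode transcription factors that bind DNA through a homeodomain and give cells a position along the body axis. Genes at equivalent places in the clusters make up a paralogue group, numbered from 1 at the end expressed nearest the head to 13 at the end expressed nearest the tail. The skull vault and the jaw form from head tissue that largely lacks Hox expression in the embryo, while genes of the high-numbered groups of Hoxa and Hoxd pattern the limb, with group 11 needed for the radius and ulna of the mouse. Several Hox genes, Hoxa9 among them, are also expressed in blood progenitors of the marrow.

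Most Hox genes gave little signal in these adult bones. The deposited signal is an intensity on a linear scale whose array medians were 30.6 to 33.6, and Hox signals ran from 0.261 to 174. Of the 34 genes, 27 had a mean below the array median at all 3 sites, and 25 were below it on all 6 arrays. Genes with a mean above the median numbered 2 in calvaria (Hoxa3 and Hoxa5), the same 2 in mandible, and 6 in ulna (Hoxa5, Hoxa9, Hoxa10, Hoxa11, Hoxb4 and Hoxd8). The spread between arrays of a site was large at such signal, with a median SD of 1.036 on the log2 scale for the Hox probe sets against 0.383 for all probe sets. The 2 arrays a site limit the precision.

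**Figure D1:**
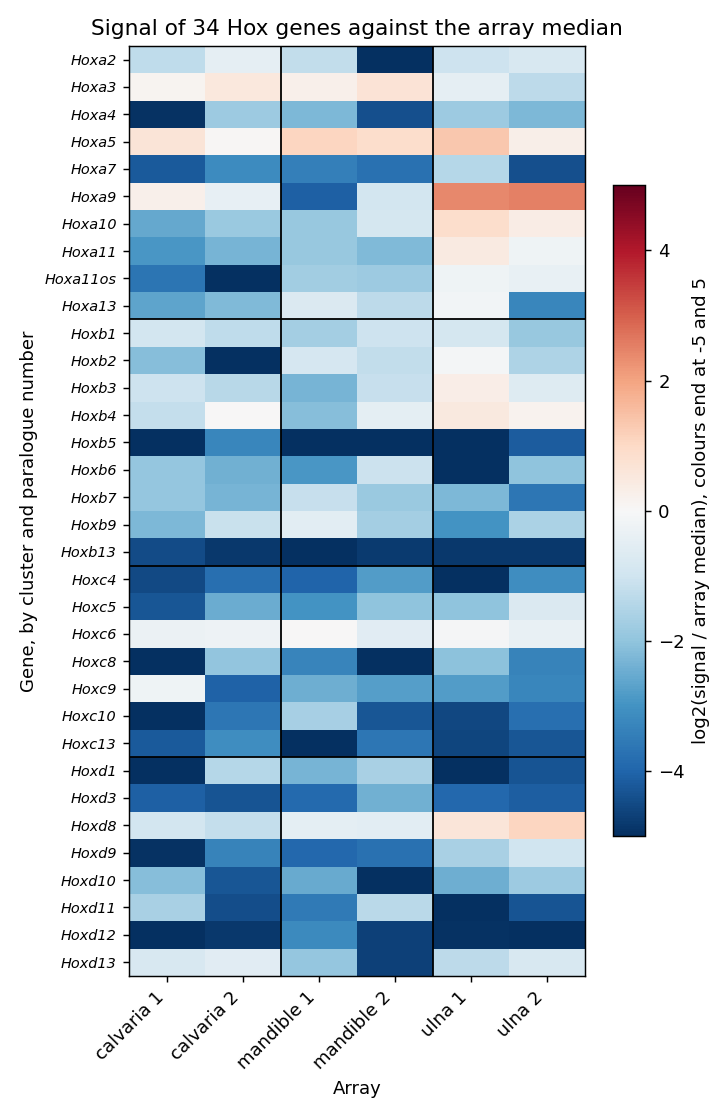
Signal of the 34 Hox genes on each of the 6 arrays as log2(signal / array median), with colours ending at -5 and 5, rows by cluster and paralogue number, and columns by site. Most rows are blue (below the median) throughout, and the ulna columns are red or near white from Hoxa9 to Hoxa11os and at Hoxd8.

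Differences between sites were tested with limma on log2(signal / array median), a fit over all 45037 probe sets. A gene was called at an adjusted p (Benjamini-Hochberg over all probe sets) under 0.05 and at least 2-fold. Between calvaria and ulna, 4 of the 34 Hox genes were lower in calvaria (Hoxa10, Hoxa11, Hoxa11os and Hoxd8) and 0 were higher, where 3.06% of all genes were called lower and 5.36% higher. Without adjustment, 7 (20.6%) had p under 0.05 and were lower and 1 (2.94%) was higher, against 17.8% and 15.2% of all genes. Both calvaria arrays lay below both ulna arrays for 10 Hox genes (29.4%, against 27.2% of all genes) and above them for 5 (14.7%, against 30.7% of all genes). The median log2 difference was -0.15 for the Hox genes and -0.04 for all genes. The share below ulna was near that of all genes, and the share above it was lower. Among the 7110 genes whose own mean lay below the array median, as most Hox genes did, 0.914% were called lower in calvaria, 2.1% higher, 17.5% had both arrays below ulna and 22.9% above. The called Hox genes were 3 of the 10 in Hoxa and 1 of the 8 in Hoxd, with 0 of 9 in Hoxb and 0 of 7 in Hoxc.

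Between mandible and ulna, 1 Hox gene was lower in mandible (Hoxa9) and 0 were higher, where 7.46% of all genes were called lower and 7.53% higher. Without adjustment, 5 (14.7%) had p under 0.05 and were lower and 1 (2.94%) was higher, against 23.1% and 17.3% of all genes. Both mandible arrays lay below both ulna arrays for 10 genes (29.4%, against 29.7% of all genes) and above them for 7 (20.6%, against 33.1% of all genes), and the median log2 difference was -0.16 (-0.06 for all genes). Among the low genes, 1.91% were called lower in mandible, 4.18% higher, 16.7% lay below ulna on both arrays and 26.0% above. Between mandible and calvaria, limma called 0 Hox genes in either direction, with p under 0.05 before adjustment for 2 higher and 2 lower genes (5.88% each, against 11.6% and 17.5% of all genes). All genes were called lower in mandible in 2.54% and higher in 3.46%. Both mandible arrays lay above both calvaria arrays for 10 Hox genes (29.4%, against 26.7% of all genes) and below them for 2 (5.88%, against 29.2%). Among the low genes, 0.97% were called lower in mandible, 2.15% higher, 18.4% lay below calvaria on both arrays and 23.6% above. The comparisons of calvaria and of mandible with ulna share the ulna arrays, so their values are given side by side.

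Hoxa9, Hoxa10 and Hoxa11 lie next to each other in the cluster. Their promoters are shown because these genes, with Hoxd8, are the protein-coding members that were called. Each line gives the 250 bases before the start of transcription in RefSeq (GRCm38.p6), 5′ to 3′ on the strand of the gene, with CG dinucleotides in capitals. Hoxa9 is chr6:52227371-52227620 on the minus strand, Hoxa10 chr6:52234940-52235189 (minus, one of 2 annotated starts), Hoxa11 chr6:52245811-52246060 (minus) and Hoxd8 chr2:74704365-74704614 (plus).
Hoxa9: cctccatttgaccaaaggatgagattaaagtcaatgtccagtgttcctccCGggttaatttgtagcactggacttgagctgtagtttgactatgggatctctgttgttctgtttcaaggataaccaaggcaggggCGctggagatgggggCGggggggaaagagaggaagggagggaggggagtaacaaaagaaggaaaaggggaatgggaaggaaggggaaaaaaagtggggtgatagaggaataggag
Hoxa10: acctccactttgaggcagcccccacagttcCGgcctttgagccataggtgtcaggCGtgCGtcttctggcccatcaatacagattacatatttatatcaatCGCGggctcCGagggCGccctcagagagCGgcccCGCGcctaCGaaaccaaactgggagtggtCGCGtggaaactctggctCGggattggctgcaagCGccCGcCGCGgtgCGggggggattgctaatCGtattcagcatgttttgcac
Hoxa11: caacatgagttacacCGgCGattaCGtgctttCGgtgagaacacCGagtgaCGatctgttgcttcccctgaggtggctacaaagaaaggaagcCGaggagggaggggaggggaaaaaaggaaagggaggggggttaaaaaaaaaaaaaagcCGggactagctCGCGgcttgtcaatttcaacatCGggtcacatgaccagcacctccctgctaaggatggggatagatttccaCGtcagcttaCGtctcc
Hoxd8: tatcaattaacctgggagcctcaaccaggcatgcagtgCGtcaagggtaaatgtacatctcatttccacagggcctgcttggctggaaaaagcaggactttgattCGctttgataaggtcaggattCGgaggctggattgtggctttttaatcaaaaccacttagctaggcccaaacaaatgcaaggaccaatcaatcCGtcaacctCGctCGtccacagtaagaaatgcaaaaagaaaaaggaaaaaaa
The windows differ in composition. Hoxa9 holds 3 CG dinucleotides and 49.6% G and C, Hoxa10 holds 20 and 59.2%, Hoxa11 holds 13 and 52.0%, and Hoxd8 holds 6 and 44.4%. The window at the other Hoxa10 start, not printed, holds 7 and 51.6%, with no match to the letters searched below. Windows were found for 23 of the 39 members (25 windows), whose medians were 13 CG dinucleotides and 59.2% G and C, against 6 and 52.4% in all 32851 windows. On both strands, the TATA box letters TATAAA matched 5 of the 25 Hox windows (20.0%, against 12.4% of all windows), and the Cdx letters TTTATG also matched 5 (20.0%, against 10.8%). TGATNNAT, letters bound by Hox and Pbx proteins together, matched 4 (16.0%, against 7.68%), and TTTATNG, for posterior Hox proteins, matched 2 (8.0%, against 9.81%). Searches for TTTATG and TTTATNG can overlap at a shared position. Of the 4 windows printed, Hoxa10 has 1 match to TATAAA, on the opposite strand, 160 bases before the start, and the other 3 have no match to these letters.

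Hoxa9 gave the highest signal of its probe set in ulna, 164 and 174, and 38.4 and 24.6 in calvaria. The mandible arrays were at 2.01 and 17.4. Ulna stood above both head bones on every array, and all calvaria arrays were above all mandible arrays. Mandible was lower than ulna (log2 difference -4.95 ± 0.79 SE, limma adjusted p = 0.000674), but the size is uncertain because both mandible signals are below the array median. It was -2.46 with a floor at that median, and -3.38 or -6.52 without the first or the second mandible array. Calvaria was 5.80-fold below ulna (-2.53 ± 0.79, limma adjusted p = 0.0533), just outside the threshold, and mandible against calvaria gave -2.42 ± 0.79 (limma adjusted p = 0.0800). A second Hoxa9 probe set gave 49.1 and 27.6 in calvaria, 15.8 and 4.72 in mandible and 55.8 and 54.9 in ulna. There mandible was lower than ulna (-2.80, limma adjusted p = 0.00581) and than calvaria (-2.13, limma adjusted p = 0.0480), while calvaria and ulna differed by -0.67 (limma adjusted p = 0.572). The summed signal of the 8 blood progenitor markers had the same order of sites, lowest in mandible and highest in ulna. Mpo (5597 and 6058 in ulna) gave the largest part of that sum, and not every marker had this order. Cd34 was lowest in ulna (154 and 113, against 260 and 181 in calvaria and 238 and 196 in mandible). Kit was lowest in calvaria and differed by -0.06 between mandible and ulna. Of the 8 markers, 5 were called lower in mandible than in ulna and 1 in calvaria than in ulna. The part of these markers in the Hoxa9 values was not tested. With any 1 array left out, mandible was still called lower than ulna in 6 of 6 fits.

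Hoxa10, which patterns the upper limb segment and is expressed in blood cells, gave 5.52 and 8.89 in calvaria, 8.93 and 18.2 in mandible and 56.5 and 39.9 in ulna. Both ulna arrays stood above all 4 arrays of the head bones. Calvaria was lower than ulna (-2.84 ± 0.71 SE, limma adjusted p = 0.0186). Mandible was not called against ulna (-2.01 ± 0.71, limma adjusted p = 0.0644). A second Hoxa10 probe set, 9.20 and 11.3 in calvaria, 20.3 and 8.13 in mandible and 9.57 and 13.1 in ulna, had overlapping sites and differences of -0.21 and 0.08 from ulna.

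Hoxa11, the group 11 gene of the cluster, gave 4.30 and 6.39 in calvaria, 9.13 and 7.14 in mandible and 42.8 and 26.2 in ulna. Again ulna did not overlap the other sites. Calvaria was lower than ulna (-2.75 ± 0.83 SE, limma adjusted p = 0.0465), just inside the threshold, and this call was lost with any 1 array left out. Mandible against ulna gave -2.17 ± 0.83 (limma adjusted p = 0.0884). Hoxa11os, a long noncoding RNA read from the opposite strand of the same locus, gave 2.60 and 0.52 in calvaria, 10.2 and 9.36 in mandible and 26.8 and 23.7 in ulna. Calvaria was lower than ulna (-4.51 ± 1.11 SE, limma adjusted p = 0.0173), with all 6 signals below the array median. The difference was -3.36 without the second calvaria array and -5.67 without the first. Mandible was not called against ulna (-1.49 ± 1.11, limma adjusted p = 0.417) or calvaria (3.02 ± 1.11, limma adjusted p = 0.122). Its second probe set had signals from 0.31 to 1.45 on all arrays.

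**Figure D2:**
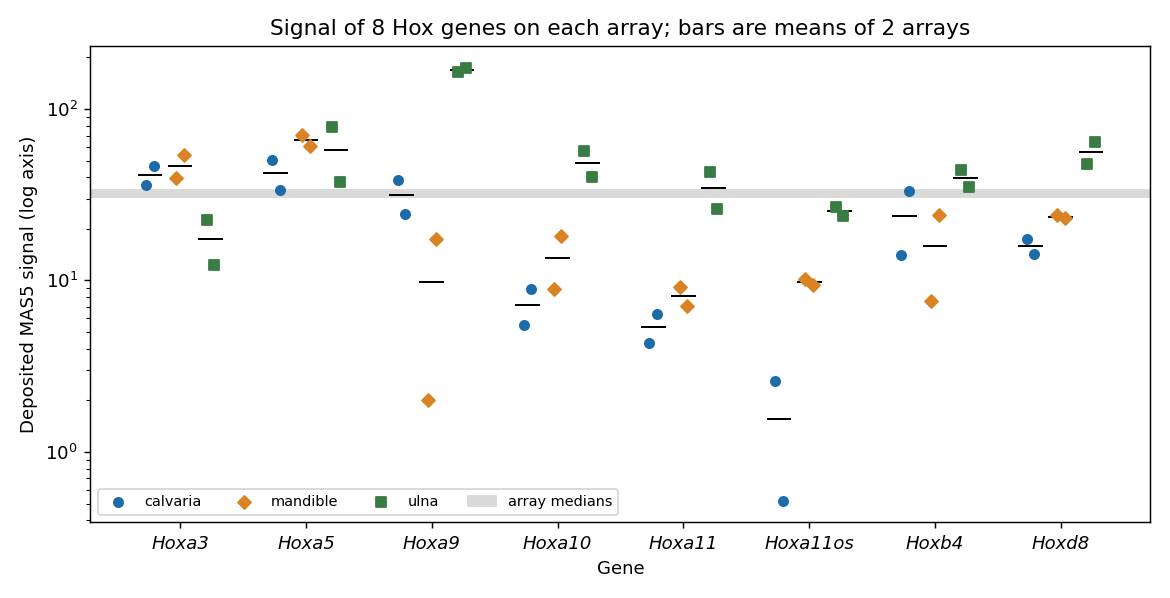
Deposited MAS5 signal (log axis) of 8 Hox genes on each array, with 2 points a site, bars for their means and a grey band for the array medians of 30.6 to 33.6. Both ulna points of Hoxa9, Hoxa10, Hoxa11, Hoxa11os and Hoxd8 lie above the 4 points of the head bones, and those of Hoxa3 lie below them.

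Hoxd8, in the middle of its cluster, gave 17.3 and 14.3 in calvaria, 24.0 and 23.1 in mandible and 47.6 and 64.2 in ulna. The 3 sites did not overlap. Calvaria was lower than ulna (-1.89 ± 0.45 SE, limma adjusted p = 0.0154). Mandible was not called (-1.35 ± 0.45, limma adjusted p = 0.0543). A second probe set, 14.8 and 2.49 in calvaria, 29.7 and 20.0 in mandible and 34.9 and 51.9 in ulna, was also lower in calvaria than in ulna (-2.88, limma adjusted p = 0.0362). All 4 genes called between calvaria and ulna had calvaria signals below the array median, so the sizes depend on how low signal is treated. With a floor at that median the differences were -0.63 for Hoxa10, -0.23 for Hoxa11, 0.00 for Hoxa11os and -0.84 for Hoxd8, and none was called. The calls of Hoxa10, Hoxa11, Hoxa11os and Hoxd8 between calvaria and ulna were all lost when either ulna array was left out, which took the count from 4 to 0, and without the second calvaria array the count was 1. Muscle markers were also lower in calvaria than in ulna (9 of 11 called, and 1 of 11 in mandible). Of 5 adipocyte (fat cell) markers, 2 were called lower in calvaria and 4 in mandible than in ulna. Their summed signal was 2330 to 2340 in calvaria, 1820 to 1860 in mandible and 5720 to 5980 in ulna. The part of muscle or fat cells in these values was not tested.

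Hoxa3, active in the third pharyngeal arch of the embryo, ran the other way. It gave 36.0 and 46.3 in calvaria, 39.5 and 53.9 in mandible and 22.5 and 12.3 in ulna. Both head bones were above ulna on every array, by 2.33-fold in calvaria (1.22 ± 0.45 SE, limma adjusted p = 0.103) and 2.56-fold in mandible (1.36 ± 0.45, limma adjusted p = 0.0512), and neither was called. In mandible Hoxa3 was called higher under 5 of 20 alternatives. The other 3 Hoxa3 probe sets had differences of -1.34, -0.71 and -0.35 between calvaria and ulna. In the same order they gave -1.14, 0.33 and -0.33 between mandible and ulna, so the direction depends on the probe set.

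Hoxa5, which patterns the neck and upper trunk skeleton, gave 50.6 and 33.7 in calvaria, 71.0 and 60.8 in mandible and 78.3 and 37.3 in ulna. Ulna overlapped both other sites (-0.46 ± 0.37 SE for calvaria, 0.16 ± 0.37 for mandible). This probe set ends in _x_at, the maker's mark for probes that can bind other transcripts too. The second Hoxa5 probe set gave 1.45 and 12.2 in calvaria, 2.59 and 22.3 in mandible and 31.3 and 33.0 in ulna. There ulna lay above both other sites, without a call (-3.01, limma adjusted p = 0.153, and -2.20, limma adjusted p = 0.272). Hoxb4, known for its action in blood stem cells, gave 14.1 and 33.1 in calvaria, 7.61 and 23.9 in mandible and 43.9 and 34.8 in ulna. Ulna was above the other sites without a call (-0.93 ± 0.68, limma adjusted p = 0.453, and -1.65 ± 0.68, limma adjusted p = 0.114). The other Hoxb4 probe set also had ulna highest (34.6 and 47.6) and gave -2.57 in calvaria (limma adjusted p = 0.0738) and -1.12 in mandible (limma adjusted p = 0.434).

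The members were also counted by paralogue group. In Hoxa, all 3 genes of groups 9 to 11 were below ulna on both arrays in calvaria (median -2.75) and in mandible (median -2.17). The 9 measured genes of groups 9 to 11 over all clusters had medians of -1.08 and -1.75. In each comparison 4 (44.4%) were below ulna on both arrays, against 27.2% of all genes in calvaria and 29.7% in mandible. Above ulna were 0 in calvaria (against 30.7% of all genes) and 2 in mandible (22.2%, against 33.1% of all genes). The wider set of groups 9 to 13 (14 genes) had medians of 0.02 and -0.04. Of these 14, 4 were below ulna in calvaria (28.6%, against 27.2% of all genes) and 4 above (28.6%, against 30.7%). For mandible, 5 were below ulna (35.7%, against 29.7% of all genes) and 3 above (21.4%, against 33.1%). The calvaria shares of this wider set were near those of all genes. Groups 5 to 8 (9 genes) had medians of -0.46 and -0.55. The fourth gene of groups 9 to 11 below ulna is Hoxd9, a limb gene. It gave 1.05 and 3.21 in calvaria, 2.24 and 2.47 in mandible and 10.2 and 15.5 in ulna. It was not called in calvaria (-2.85 ± 1.17 SE, limma adjusted p = 0.146) or in mandible (-2.53 ± 1.17, limma adjusted p = 0.164). Hoxd11, the partner of Hoxa11 in forming the ulna of the mouse embryo, was not called. It gave 10.5 and 1.49 in calvaria, 2.90 and 12.99 in mandible and 0.46 and 1.53 in ulna, all below the array median.

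**Figure D3:**
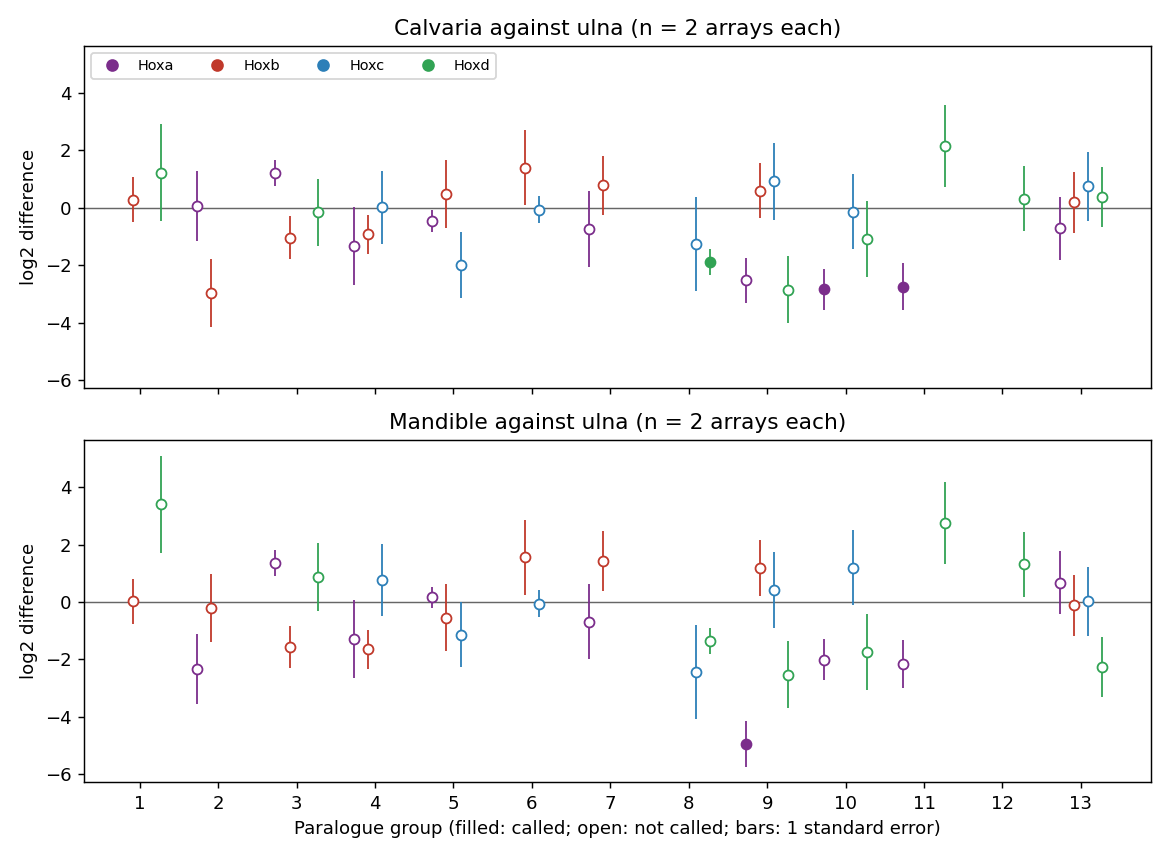
Log2 difference from ulna (n = 2 arrays each site) of 33 Hox genes by paralogue group and cluster, calvaria above and mandible below, with bars of 1 standard error. Filled points are called genes, which are Hoxd8, Hoxa10 and Hoxa11 in calvaria and Hoxa9 in mandible, and the other groups scatter on both sides of 0 (Hoxa11os has no group number and is not drawn).

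The other Hox genes were given by counts and range, and the ones named here were chosen after their values were seen. The 27 genes with no mean above the array median had signals of 0.261 to 39.0. For Hoxc6, a trunk gene, the sites overlapped, at 26.2 and 27.4 in calvaria, 33.7 and 22.5 in mandible and 30.0 and 23.6 in ulna. Its difference from ulna was -0.07 in calvaria (95% interval -1.09 to 0.96) and -0.06 in mandible (-1.09 to 0.96), and the lower end of each interval lies past 2-fold. Another Hoxc6 probe set had ulna (21.6 and 20.3) above calvaria (4.30 and 10.4) and mandible (9.96 and 10.8), without a call (-1.72, limma adjusted p = 0.232, and -1.13, limma adjusted p = 0.419), and the third gave -0.83 and -0.28. Hoxb2, a hindbrain gene, gave 7.44 and 0.75 in calvaria, 19.0 and 14.3 in mandible and 28.9 and 10.5 in ulna, without a call (-2.96 ± 1.18 SE in calvaria, limma adjusted p = 0.134). Probe sets of 1 gene lay on both sides of 0 between calvaria and ulna for Hoxa3, Hoxa4, Hoxa11os and Hoxd13, between mandible and ulna for Hoxa3, Hoxa4, Hoxa5, Hoxa10 and Hoxc5, and between mandible and calvaria for Hoxa4, Hoxa11os, Hoxb3, Hoxb4 and Hoxd13.

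The ends of the series showed no call. Groups 1 to 4 (10 genes) had medians of -0.08 in calvaria and -0.09 in mandible against ulna. Groups 12 and 13, which pattern the hand and the tail end, had 5 genes, with medians of 0.32 and 0.03. Of these, 4 (80.0%) were above ulna on both calvaria arrays, against 30.7% of all genes and 22.9% of the low genes. In mandible 1 (20.0%) was above ulna on both arrays, against 33.1% and 26.0%, and 1 was below. Signals of these 5 genes were low, so their order between sites carries little weight. Hoxd12, for example, gave 1.02 and 1.13 in calvaria and 1.02 and 0.65 in ulna. Hoxa13 gave 5.18 and 7.11 in calvaria, 20.2 and 13.3 in mandible and 28.2 and 3.19 in ulna, with overlap between sites.

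Probe sets shared by members were counted apart. The one that names Hoxb8 and Hoxb7 together gave 0.52 and 0.47 in calvaria, 0.97 and 10.3 in mandible and 12.3 and 18.7 in ulna. It was lower in calvaria than in ulna (-5.02 ± 1.36 SE, limma adjusted p = 0.0279), with all 6 signals below the array median, so the size is uncertain. It cannot be assigned to either gene. The probe set of Hoxb7 alone gave 8.57 and 6.43 in calvaria and 6.55 and 2.53 in ulna. Over all 53 probe sets, 6 were called lower in calvaria and 2 lower in mandible than in ulna, and 1 was called lower in mandible than in calvaria. These are not counts of genes, since both Hoxd8 probe sets and both Hoxa9 probe sets are among them. Of all genes, 3.06%, 7.46% and 2.54% were called lower in the same comparisons, and the shares over all probe sets were not counted.

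Hox proteins bind DNA with partners of the Meis, Pbx and Pknox families, of which 8 of 9 were measured. Meis2 was the 1 called between calvaria and ulna and the 1 called between mandible and calvaria. It gave 87.4 and 93.2 in calvaria, 10.4 and 7.62 in mandible and 9.61 and 12.7 in ulna (2.95 ± 0.56 SE against ulna, limma adjusted p = 0.00368). Calvaria alone was high. Mandible against ulna gave 0 calls among these partners. In the list of 16 regulators of the clusters, Cyp26b1, which breaks down retinoic acid, a signal that turns on Hox genes in the embryo, was higher in calvaria (3.21 ± 0.67, limma adjusted p = 0.00662) and in mandible (4.68 ± 0.67, limma adjusted p = 0.000308) than in ulna. Its signals were 41.5 and 17.7, 71.7 and 83.0, and 2.34 and 3.30. The Polycomb genes Ezh2 and Suz12, whose complex silences Hox clusters, were lower in mandible than in ulna (-1.56 and -1.80, limma adjusted p = 2.21e-07 and 3.44e-07). The summed blood progenitor signal was also lower there. In calvaria, Ezh2 and Suz12 were below ulna by less than 2-fold (-0.67 and -0.95, limma adjusted p = 0.000287 and 8.64e-05). No other Polycomb gene of the list was called. Against ulna in mandible, Eed, of the same complex, gave -0.41, Rnf2 -0.25, Ring1 -0.08, Bmi1 0.16, Cbx2 0.32 and Phc1 0.67. In calvaria these other genes ran from -0.13 (Eed) to 0.92 (Phc1, limma adjusted p = 0.00952). Cdx4, an activator of Hox genes in the embryo, was called higher in mandible (3.93 ± 1.28, limma adjusted p = 0.0476), with signals of 15.6 and 7.97 against 1.51 and 0.30 in ulna, all below the array median.

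Of the genes that flank the clusters, 15 of 16 were measured. Between calvaria and ulna, Snx10 was higher in calvaria (1.05, limma adjusted p = 4.51e-05) and Snx11 lower (-1.19, limma adjusted p = 0.0412). In mandible, Skap2, which lies beside Hoxa, was lower than in ulna (-1.52, limma adjusted p = 2.35e-07), as was Cbx5 (-1.02, limma adjusted p = 1.39e-05). Hibadh, on the side of Hoxa that holds group 13, differed from ulna by -0.27 in calvaria and -0.06 in mandible, and neither was called. Skap2 differed from ulna by -0.45 in calvaria, below 2-fold (limma adjusted p = 0.00361). The 2 neighbours on either side of Hoxa thus ran from -0.45 to 1.05 in calvaria against ulna.

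**Figure D4:**
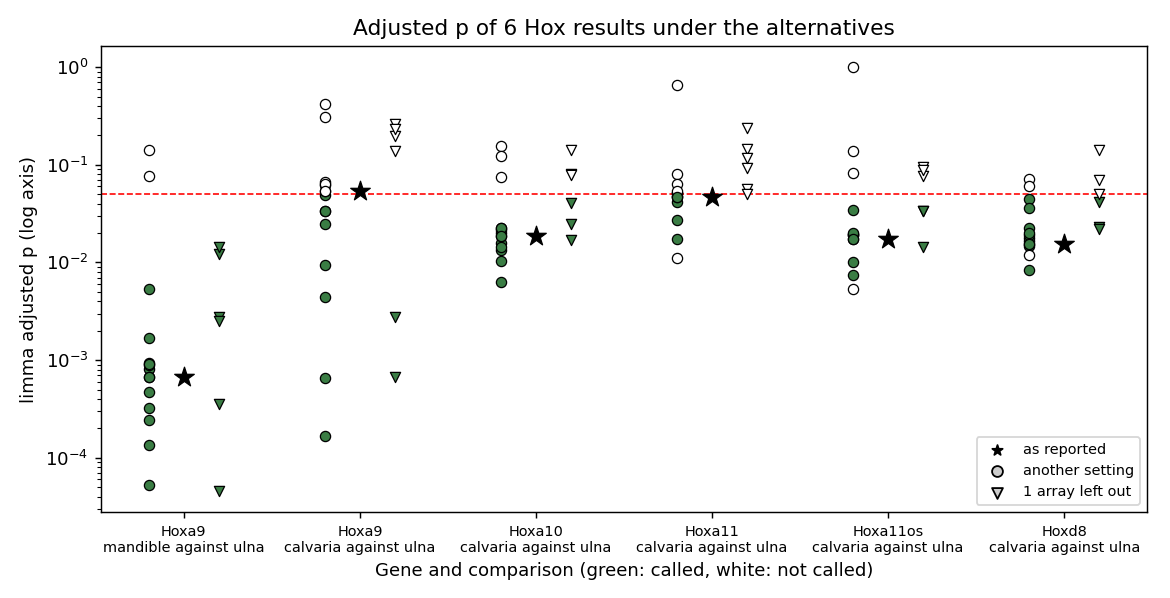
Adjusted p from limma (log axis) of 6 Hox results as reported (stars), under other settings (circles) and with 1 array left out (triangles), where green marks a call and white none, and the dashed line is 0.05. Hoxa9 in mandible stayed called under 19 of 21 alternatives, Hoxa10 and Hoxd8 in calvaria under 14 of 20 each, Hoxa11os under 12 of 19 and Hoxa11 under 6 of 19.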

How the data were processed

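Signal was measured in 2 arrays each of calvaria, mandible and ulna. The authors computed the deposited signal intensity with MAS5 and scaled it to a 2% trimmed mean of 100.0 on every array, and no detection calls were used, so a low signal is not called absent. Each array was divided by its median (30.6 to 33.6), and log2 was taken with no offset and no filter. Of 45101 probe sets, 64 controls were left out. Probe sets were named from the array annotation, with symbols updated through Entrez IDs and GRCm38.p6 (34945 had 1 symbol, 932 several and 9160 none). Site means were estimated by limma 3.58.1 under R 4.3.3 using a variance trend (residual degrees of freedom 3, prior 8.1) and Benjamini-Hochberg adjustment over 45037 probe sets. The fit was tested on simulated data. Values on every array are given for each member called in any comparison or with a mean above the array median at any site, and others named were chosen after their values were seen. Lists of markers, partners, regulators and neighbours have no test. Members and lists were chosen with earlier results of these data known. Alternatives covered scaling, filters, offsets, moderation, the choice of probe set, a replicate block and each array left out. Promoter letters were read from RefSeq windows. Plots used matplotlib 3.10.9 in Python 3.11.15.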

Additional observations from a re-analysis of the deposited data

How the results depend on the processing

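Low signal and 2 arrays a site limit these results, and most Hox calls lay near the threshold. Between calvaria and ulna (4 calls), the count was 1 with a filter at the 75th percentile of the array and 1 with a floor at the array median, in both Hoxa9 and none of the 4. It was 2 with no trend (Hoxa11 and Hoxd8), 2 with an offset of 1 (Hoxa9 and Hoxa10) and 0 with no moderation. With 1 array left out the counts ran from 0 to 4, with 0 without either ulna array. Between mandible and ulna (1 call), the counts were 4 with 1 probe set a gene, 3 with a filter at the array median, 0 with no moderation, 2 with no trend, 5 with an offset of 0.25, 4 with only the 4 arrays of the comparison, 2 with scaling to the 75th percentile and 2 with values as deposited, and 1 to 3 with 1 array left out. Hoxa3 was called higher with 1 probe set a gene, the filter at the median, scaling to the 75th percentile, values as deposited and without the first ulna array. Between mandible and calvaria (0 calls), a filter at the 75th percentile gave 1, and the counts with 1 array left out ran from 0 to 1 (1 without either mandible array).

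Over all genes, the adjusted p alone gave 3781, 5558 and 2901 calls for calvaria against ulna, mandible against ulna and mandible against calvaria (1531, 2727 and 1092 with the 2-fold limit). No moderation gave 664, 1563 and 242, and an offset of 1 gave 907, 1721 and 683. A floor at the array median gave 1007 for calvaria against ulna, and no trend gave 704 there and 229 for mandible against calvaria.

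Directions reversed in 9 of 477 values. With the probe set of largest change, Hoxa3 gave -1.34 in calvaria against ulna, Hoxa5 gave -2.20 in mandible against ulna (also -2.20 without _x_at and _s_at probe sets) and Hoxb4 gave 1.44 in mandible against calvaria. With 1 array left out, Hoxa3 in mandible against calvaria ran from -0.10 to 0.37 (with -0.05 also below 0), Hoxa5 in calvaria against ulna ran from -0.99 to 0.06 and in mandible against ulna from -0.36 to 0.69, and Hoxb4 in mandible against calvaria ran from -1.55 to 0.12. The cause was not tested.

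With the replicate number as a block, the Hox counts were 4, 1 and 0, with Hoxa9 called and Hoxa11 not called between calvaria and ulna, and the counts over all genes were 1529, 2702 and 1099. Deviations of arrays with the same number correlated at -0.036, 0.008 and -0.016 over probe sets with a mean above the array median. Over all probe sets the values were 0.007, -0.013 and -0.004. These values cannot tell whether arrays with the same number came from the same mice.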

Other observations

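Other RNAs named for the Hox clusters were measured outside the member list. Hoxb5os gave 1.36 and 3.48 in calvaria, 16.3 and 9.19 in mandible and 1.60 and 9.24 in ulna. Hoxd3os1 had 2 probe sets, with signals from 1.60 to 23.4 in the first and 2.08 to 18.8 in the second. All lay below the array medians.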
